A study of Rattus norvegicus with 140 samples.

Results

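Genes of the cell cycle and of DNA replication were followed in heart, liver, kidney and lung of male Fischer 344 rats after heat stress. The set holds 50 genes, chosen by their role: 20 of S phase and its entry (nucleotide supply, replication origins and forks, and the cyclins D1 and E with their kinase) and 30 of mitosis and G2. It was chosen with earlier results of these data known, as were the lists of further genes and cell markers used below. Their counts beside the share of all IDs are therefore a description. A gene was matched to the array by its symbol in the platform's annotation, and the transcript ID with the highest mean level in the organ was used. Of the 50 genes, 47 had an ID (18 of S phase and 29 of mitosis) among the 29214 IDs of the array, 18644 of which carry 1 gene symbol. Rrm1, Tk1 and Birc5 had none, and Rrm2 and Ccnb2 had 2 IDs each, of which lung uses another for Rrm2 than the other organs, and kidney and lung another for Ccnb2 than heart and liver.

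The rats were about 2 to 3 months old and carried telemetry implants for core temperature, heart rate and blood pressure. Heat-stressed rats stayed in an incubator at 37°C up to a core temperature of 41.8°C, the point called TcMax, and were killed then, or after 24 h or 48 h of recovery at 22°C. Time-matched controls were not heated and were killed at the same 3 times. By the labels they spent a short time in the incubator at ambient temperature, whereas by the study's methods they were not put in it. Groups have 6 rats of each organ, with the exception of heated hearts at TcMax and, at 48 h, both liver groups and heated lungs, which have 5. The labels do not say which rats recovering for 48 h had injured organs, so all heated rats of a time form 1 group. The values are intensities of whole organ tissue, so a change in the number of dividing cells and a change in RNA per cell cannot be told apart.

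A cell that divides first passes from G1 into S phase, when cyclin D1 and then cyclin E activate kinases that release the E2F transcription factors. E2F targets load and fire the replicative helicase (the Mcm2 to Mcm7 ring with Cdc6, Cdc45 and Gins1), prime and extend new DNA (Prim1, Pola1, Pcna) and make nucleotides (Rrm2, Tyms). Mitosis genes follow later in the cycle: the cyclins A2, B1 and B2 with the kinase Cdk1, the kinases Plk1, Aurka, Aurkb, Bub1 and Ttk, the motor proteins of the Kif family, and the proteins of the centromere (Hjurp, Cenpe, Cenpf). Heart, liver, kidney and lung of an adult animal hold few dividing cells.

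The promoters of the 2 classes held the motifs of late and early cell cycle genes at different shares, given here as a description with no test. In 300 bases around the start site (250 before and 50 after, RefSeq, build GRCr8), 41 of the 50 genes had a sequence, and 3 motifs were searched on both strands. The cell cycle homology region (TTTGAA), a site of the complex that holds late genes down in resting cells, lay in 15 of 26 mitosis promoters (57.7%), in 1 of 15 S phase promoters (6.67%) and in 18.3% of 33469 rat promoters. The E2F letters (TTTNNCGC) lay in 8 of 15 S phase promoters (53.3%), in 5 of 26 mitosis promoters (19.2%) and in 4.92% of all promoters. CCAAT boxes, bound by the factor NF-Y, lay in 11 of 15 S phase promoters (73.3%), 20 of 26 mitosis promoters (76.9%) and 37.5% of all. The pair of TTTGAA and CCAAT stood in 14 of the 26 mitosis promoters and in none of the 15 of S phase, beside 7.41% of all promoters. Of the 111 matches in these genes, 6 overlapped a match of another motif, and a match is a run of letters and not a measured binding site. Rrm2, Cdc6, Mcm4, Ccne2, Ccnd1, Ccna2, Ube2c, Aurkb and Tpx2 are named only.

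4 promoters are printed from base 1 to 300 in the direction of transcription, with the matched letters in capitals, as examples of both classes whose values are given below: Ccnb2 and Cdk1, which drive entry into mitosis, and Mcm3 and Mcm6 of the helicase ring. Ccnb2 lies on chr8:79981609-79981908 (minus strand), Cdk1 on chr20:19265043-19265342 (plus strand), Mcm3 on chr9:30733697-30733996 (minus strand) and Mcm6 on chr13:42404303-42404602 (minus strand).
Ccnb2: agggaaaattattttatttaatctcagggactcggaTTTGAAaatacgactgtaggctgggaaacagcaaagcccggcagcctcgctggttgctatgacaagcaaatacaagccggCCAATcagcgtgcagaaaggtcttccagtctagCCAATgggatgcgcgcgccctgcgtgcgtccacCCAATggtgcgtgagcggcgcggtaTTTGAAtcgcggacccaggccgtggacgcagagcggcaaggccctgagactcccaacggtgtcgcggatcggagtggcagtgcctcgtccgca
Cdk1: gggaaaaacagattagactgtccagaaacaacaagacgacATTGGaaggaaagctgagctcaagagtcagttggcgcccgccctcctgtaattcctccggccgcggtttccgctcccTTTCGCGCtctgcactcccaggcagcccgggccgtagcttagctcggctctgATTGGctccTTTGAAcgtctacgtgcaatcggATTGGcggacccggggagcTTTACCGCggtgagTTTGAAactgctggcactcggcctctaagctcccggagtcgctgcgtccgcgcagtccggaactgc
Mcm3: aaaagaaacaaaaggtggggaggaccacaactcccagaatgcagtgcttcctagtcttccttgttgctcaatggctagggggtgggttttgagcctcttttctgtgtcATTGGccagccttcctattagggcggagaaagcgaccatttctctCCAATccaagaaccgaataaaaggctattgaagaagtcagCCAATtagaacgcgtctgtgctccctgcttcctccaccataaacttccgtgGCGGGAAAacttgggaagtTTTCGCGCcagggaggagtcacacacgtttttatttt
Mcm6: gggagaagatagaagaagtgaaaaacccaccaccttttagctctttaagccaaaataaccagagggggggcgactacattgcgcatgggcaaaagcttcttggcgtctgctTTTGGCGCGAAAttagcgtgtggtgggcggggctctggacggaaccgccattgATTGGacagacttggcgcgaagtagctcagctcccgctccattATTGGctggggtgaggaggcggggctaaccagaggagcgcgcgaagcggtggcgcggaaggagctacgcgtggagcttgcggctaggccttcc
The Ccnb2 promoter held 2 TTTGAA matches (at -214 and -43 from the start site) and a row of 3 CCAAT boxes (at -134, -101 and -68). The Cdk1 promoter held 2 TTTGAA matches (at -72 and -16), 3 CCAAT boxes on the opposite strand (at -210, -81 and -49) and 2 E2F matches (at -133 and -30). Mcm3 had 3 CCAAT boxes (at -142, -97 and -57) and E2F matches at -6 and 13, and Mcm6 had CCAAT boxes at -86 and -43 and E2F matches at -139 and -135 that overlap on opposite strands. Neither Mcm promoter held TTTGAA.

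In all, 140 arrays were measured: 36 kidneys, 35 lungs, 35 hearts and 34 livers. Array medians were 38.0 to 57.1 for kidney, 55.2 to 70.4 for lung, 37.6 to 50.9 for heart and 37.2 to 46.96 for liver. The authors normalized each organ apart, so levels are not set against each other between organs. Of the 47 genes, 33 lay below the array median in kidney, 30 in lung, 29 in liver and 22 in heart, and the mean intensity was under 16 for 14, 1, 11 and 3 of them in that order. 1 heart array, that of heated replicate 4 at 48 h, was left out: its cardiac muscle markers averaged 5.75 on the log2 scale (11.13 to 12.57 on the other heart arrays) and its lung epithelium markers 12.18 (4.46 to 5.77 on the others). The cardiac muscle and lung epithelium markers of the remaining heart arrays therefore matched the label. Hepatocyte markers did not match it as closely: at 12.13 to 12.38 in liver, they ranged from 5.18 to 10.25 in heart, 5.43 to 10.89 in kidney and 5 to 9.45 in lung. In hearts of 48 h they were at 10.25 in control replicate 4 and at 8.62 and 9.24 in heated replicates 1 and 2, against 5.18 in heated replicate 3. The part of this spread in the differences was not tested. Differences are heated minus time-matched control on log2(intensity + 16), ± SE of the limma fit of an organ's 6 groups, with Benjamini-Hochberg adjustment over all 29214 IDs. A gene is said to have risen or fallen at an adjusted p under 0.05. Counts at an unadjusted p under 0.05 are given as a description and are not calls. The share of all IDs under that threshold is not given beside them, so they cannot be set against the background. Counts of positive or negative differences have no such share beside them either and are likewise a description.

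At TcMax no gene of the set rose in any organ and a few fell, with cyclin D1 as the gene that fell in 3 of the 4 organs. Of 47 members, 5 fell in lung, 2 in kidney, 1 in heart and 0 in liver. Over all IDs the shares that fell were 9.06% for lung, 4.85% for kidney, 2.5% for heart and 12.4% for liver, and the shares that rose were 6.96%, 3.97%, 2.7% and 7.72%, so the members that fell were near the background in heart, kidney and lung. At an unadjusted p under 0.05, 6 members were lower in lung, 4 in kidney (with 1 higher), 2 in heart and 3 in liver. Most members lay slightly lower without passing: 39 of 47 differences were negative in lung, 41 in kidney, 37 in heart and 38 in liver. In that order of organs the medians were -0.27, -0.22, -0.17 and -0.16 over S phase members and -0.14, -0.14, -0.21 and -0.17 over mitosis members, beside -0.01, -0.04, -0.02 and -0.04 over all IDs.

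Ccnd1, the cyclin that carries growth signals to the G1 kinases, was the brightest member in each organ. In kidney its intensity was 836.3 to 1323 in controls (median 1009) and 577.9 to 734.3 in heated rats (median 630.7). All 6 heated kidneys were below all 6 controls, as were 3.04% of all IDs there, a difference of -0.69 ± 0.11 (fold 0.622, adjusted p = 2.345e-05 in limma). In lung the controls were at 743.8 to 1187 (median 1074) and the heated rats at 532.5 to 747.3 (median 653.7), and 5 of 6 heated lungs were below all controls (-0.65 ± 0.11, adjusted p = 3.157e-05 in limma). In heart the 5 heated rats were at 318.3, 305.4, 276, 403.3 and 322.6, against 401.4 to 871.8 in controls (median 514.8). The heart values overlapped in 1 heated rat (-0.72 ± 0.18, adjusted p = 0.0101 in limma), and the call was lost when only these 2 groups were fitted (adjusted p = 0.0513) and when the left-out array was kept (adjusted p = 0.115). In liver Ccnd1 spread over 195.5 to 715.5 in controls (median 492.8) and 131.2 to 374.6 in heated rats (median 227.7), and the difference of -0.86 ± 0.40 did not pass (adjusted p = 0.143 in limma). Of 4 endothelial markers 2 fell in heart at TcMax, Tie1 at -0.74 (controls 422.5 to 895.3, heated 267.4 to 439.2) and Tek at -0.50, and their part in the fall of Ccnd1 was not tested.

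Prim1, the catalytic subunit of the primase that starts each new DNA strand, fell in kidney and lung. Kidney controls ranged from 66.5 to 104.3 (median 90.4) and heated kidneys from 41.9 to 68.2 (median 54.5), with 5 of 6 heated rats below all controls (-0.54 ± 0.13, adjusted p = 0.00319 in limma). In lung the groups did not overlap (4.83% of all IDs lay below every control), at 90.3 to 119.4 in controls (median 102.5) and 55.9 to 85.4 in heated rats (median 70.4), and the difference was -0.46 ± 0.12 (adjusted p = 0.00489 in limma). Lung had 3 further falls: the helicase subunit Mcm6 at -0.67 ± 0.15 (adjusted p = 0.00131; controls 55.4 to 87.5, heated 32 to 57.5), the kinetochore protein Cenpf at -0.53 ± 0.17 (adjusted p = 0.0283) and the S phase kinase Cdk2 at -0.34 ± 0.10 (adjusted p = 0.0191), each with 5 of 6 heated lungs below all controls. Without control replicate 5 the count in lung was 3 in place of 5. Of the T and B lymphocyte markers 3 of 6 fell in lung too (Cd3g at -0.94), with list means of 5.97 to 6.78 in controls and 5.40 to 6.14 in heated lungs, and of the macrophage and monocyte markers 3 of 6 fell, with means of 7.45 to 7.91 and 7.17 to 7.67. Their part in these differences was not tested. In kidney 2 of 6 macrophage and monocyte markers fell (Cd14 at -0.78 and Csf1r at -0.54, list means 6.10 to 6.52 in controls and 5.82 to 6.23 in heated rats), as did 1 of 6 lymphocyte markers (Cd79b at -0.42, list means 5.34 to 5.49 and 5.07 to 5.40) and 1 of 4 endothelial markers (Tie1 at -0.42), and their part in the falls of Ccnd1 and Prim1 was not tested. Mcm4 in kidney had groups apart (controls 88.8 to 106.1, heated 66.5 to 82.7) with a difference of -0.29 ± 0.13 that did not pass (adjusted p = 0.222 in limma).

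**Figure D1:**
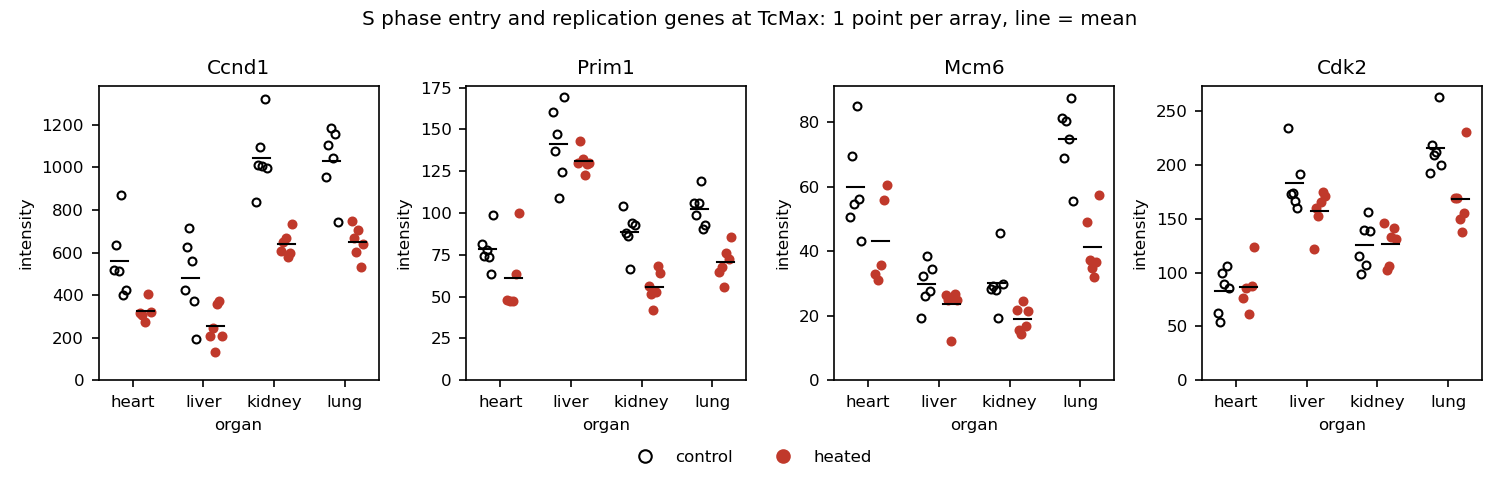
Intensity (linear axis from 0) of S phase entry and replication genes at TcMax in the 4 organs, 1 point per array, open for controls and filled for heated rats, with a line at each group's mean. Heated kidneys lie at 577.9 to 734.3 for Ccnd1, all below the controls at 836.3 to 1323, and heated livers overlap with their controls.

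Of 21 G1 regulators outside the set, 1 rose and 3 fell in lung at TcMax, 3 moved each way in kidney and likewise in liver, and 2 each way in heart. The shares of all IDs that fell and rose, given above for TcMax, apply to these lists too, and several of their counts are near them, as with 3 of 29 and 3 of 36 in liver beside 12.4% of all IDs that fell. Myc, a transcription factor that promotes growth, rose by 1.56 in liver, by 1.497 in kidney and by 1.47 in heart, and Cdkn1a, the p21 inhibitor of the S phase kinases, by 1.52, 1.09 and 1.04 in that order. Cdkn2c, an inhibitor of the cyclin D kinases, fell by 0.81 in heart and by 0.73 in lung, where Ccnd2 rose by 0.41. Of 29 further replication genes measured in lung, 1 rose (Clspn, a checkpoint adaptor at the fork, by 0.80) and 5 fell, among them the single-strand binding protein gene Rpa1 by 0.51 and the maintenance methyltransferase gene Dnmt1 by 0.33. Dnmt1 also fell by 0.59 in liver and by 0.42 in kidney. Of these 29 genes 3 were lower in liver, 1 in kidney and 0 in heart, and Mcm10, which joins the helicase to the polymerase, rose by 1.75 in liver as the only one there. Of 36 further mitosis genes 6 fell in lung, 3 in liver and 1 in kidney, while 2 rose in liver and 1 in heart, and Wee1, an inhibitory kinase of Cdk1, rose by 0.87 in liver and by 0.55 in heart.

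At 24 h no member passed in any organ (limma, 0 of 47 in each), with unmoderated variances too. Over all IDs the shares that rose and fell were 0.253% and 0.298% for liver, 0.024% and 0.0137% for heart, and 0% either way for kidney and lung. At an unadjusted p under 0.05 there were 10 members in liver (2 higher, 8 lower), 8 in kidney (7 higher, 1 lower) and 0 in heart and lung. The median over S phase members was 0.25 in liver, 0.24 in kidney, 0.23 in heart and -0.02 in lung, and over mitosis members it was -0.37, -0.01, -0.03 and -0.08. All 18 S phase differences were positive in heart, 16 in kidney and 15 in liver, while 24 of 29 mitosis differences were negative in liver. Medians and signs over all IDs are not given beside these. In liver the mean over S phase members minus that of controls was 0.31, -0.12, -0.28, -0.17, 1.501 and -0.16 in heated replicates 1 to 6. Replicates 2, 3, 4 and 6 were thus below the control mean. The difference between the classes was not tested.

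The highest S phase differences at 24 h were those of Mcm2 in heart (0.48), Mcm6 in kidney (0.58), Mcm3 in liver (0.49) and Tyms in lung (0.16), and the lowest was that of Rrm2 in liver (-1.04). Mcm3 in heart was at 9.46 to 14.7 in controls (median 14.0) and at 20, 38.1, 15.4, 23.7, 16.9 and 23 in the 6 heated rats. The groups did not overlap (0.65% of all IDs had every heated heart above every control), but the values are low and the difference of 0.41 ± 0.28 did not pass (adjusted p = 0.999 in limma). In kidney Mcm6 was at 16.5 to 39.5 in controls (median 25.8) and 24.9 to 92.6 in heated rats (median 43.4), a difference of 0.58 ± 0.22 (adjusted p = 0.719). On the mitosis side, the lowest differences in liver were those of Top2a, which untangles DNA (-1.10 ± 0.40, adjusted p = 0.209), Cdkn3 (-0.94 ± 0.43, adjusted p = 0.346) and the kinase Plk1 (-0.83 ± 0.28, adjusted p = 0.166). Plk1 was at 10.2 to 60.8 in control livers (median 20.9), while heated livers 1 to 6 were at 9.4, 6.1, 7, 7, 18.8 and 4.2, so that 5 of 6 were below all controls and near the bottom of the scale.

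1 heated rat stood apart at 24 h, the one that gave liver replicate 5 and replicate 2 of heart, kidney and lung. Its mean over the S phase members exceeded the control mean by 1.501 in liver, by 0.58 in kidney, by 0.53 in heart and by 0.31 in lung, the highest of the 6 heated rats in each organ, and its mean over the mitosis members by 0.26, 0.19, 0.01 and 0.23. In its liver Mcm6 was at 287.9, against 12.7 to 58.5 in the other heated livers and 18.3 to 56.4 in controls. The cyclin E gene Ccne1 was at 152.7, against 7.8 to 34.8 in the others and 9 to 29.5 in controls. Ccnd1 was at 1936.3 (165.8 to 540.2 in the others, 229.9 to 686.5 in controls) and Mcm2 at 340.7 (54.2 to 112.8 in the others). The proliferation marker Mki67 was at 85.8, against 8.4 to 38.7 in the others and 26.2 to 152.9 in controls. The neutrophil markers of that liver averaged 6.24, the top of the liver's range of 4.80 to 6.24, and their part was not tested.

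**Figure D2:**
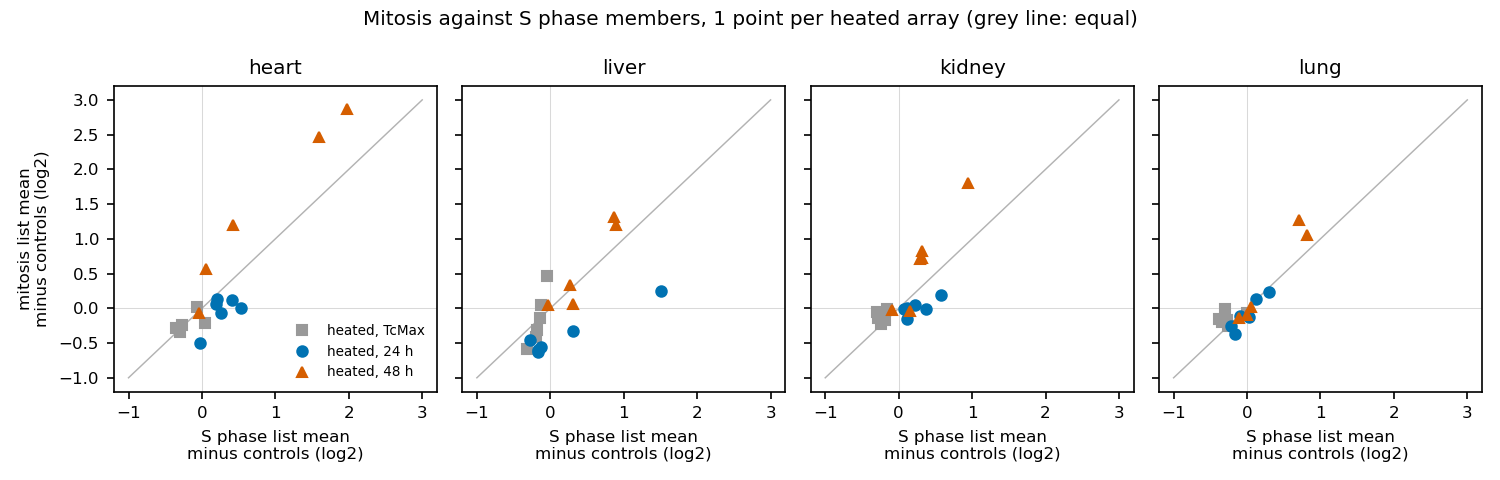
Mean over the mitosis members against mean over the S phase members, each minus the mean of the time-matched controls (log2), 1 point per heated array and 1 panel per organ, with a grey line where the values are equal. At 24 h 1 liver lies far to the right at 1.501 on the S phase axis and 0.26 on the mitosis axis, whereas at 48 h 2 hearts reach 2.86 and 2.47 on the mitosis axis with 1.98 and 1.60 on the S phase axis.

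At 48 h 32 of 47 members rose in heart and none fell. These were 28 of 29 mitosis members and 4 of 18 S phase members, beside 1.25% of all IDs that rose and 0.445% that fell in heart. The median difference was 1.46 over mitosis members and 0.76 over S phase members, against 0.01 over all IDs. The rise reached 2-fold for 30 members (26 of mitosis and 4 of S phase), beside 0.647% of all IDs. All 47 differences were positive and 46 had an unadjusted p under 0.05. The size differed among the heated hearts: replicates 3 and 5 were far above the controls, replicate 2 was moderately so, replicate 6 exceeded them for most mitosis members, and replicate 1 lay within the range of the controls for most members. The mean over the mitosis members was 5.41, 6.67, 8.33, 7.94 and 6.04 in heated replicates 1, 2, 3, 5 and 6, against 5.24 to 5.66 in controls, and that over the S phase members was 6.30, 6.77, 8.33, 7.95 and 6.41, against 6.19 to 6.44.

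Rrm2, the ribonucleotide reductase subunit made in S phase, led with 40.2, 186.8, 1010.2, 656.9 and 80 in heated replicates 1, 2, 3, 5 and 6, against 28.6 to 57.6 in controls (median 40.9). The difference was 2.05 ± 0.44 (fold 4.14, adjusted p = 0.0213 in limma). This SE and those of the other heart differences at 48 h pool the variance over the organ's 6 groups. They do not measure the wider spread among the heated hearts of 48 h alone, and no member passed when only these 2 groups were fitted. Ccna2, the cyclin of S phase and early mitosis, was at 55.2, 265.4, 1005.4, 748.6 and 136.2 in the same order, against 45.1 to 87.8 in controls (median 65.9), a difference of 1.89 ± 0.41 (fold 3.71, adjusted p = 0.0213 in limma). In both genes replicates 2, 3, 5 and 6 exceeded every control and replicate 1 did not.

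The engine of mitotic entry followed the same order of rats. Cdk1 was at 19.4, 101.5, 353.9, 233.7 and 46, against 14.3 to 34 in controls (median 23.0), a difference of 1.62 ± 0.34 (adjusted p = 0.0208 in limma). Its partner Ccnb2 was at 31.5, 105.3, 347.1, 268.5 and 60.4, against 18.3 to 36.3 in controls (median 31.3), a difference of 1.60 ± 0.31 (adjusted p = 0.0166). Plk1, which promotes entry and spindle assembly, was at 16.8, 90.7, 435, 338.2 and 40.5, against 17.7 to 34.4 in controls (median 22.6), a difference of 1.68 ± 0.37 (adjusted p = 0.0225). Each of the 3 was above all controls in 4 of 5 heated hearts. Cdkn3, a phosphatase that acts on the cyclin-dependent kinases, rose by 1.77 ± 0.33 (fold 3.40, adjusted p = 0.0166) and Cdc20, the activator of the anaphase-promoting complex, by 1.62 ± 0.33 (adjusted p = 0.0201).

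Spindle, chromosome and centromere genes rose with them. The motor gene Kif20a was at 28.2, 128.7, 535.5, 306.1 and 68.7, against 23.1 to 36.3 in controls (median 30.6), a difference of 1.77 ± 0.34 (adjusted p = 0.0166). The spindle factor Tpx2 rose by 1.67 ± 0.39 (adjusted p = 0.0271), Top2a by 1.65 ± 0.38 (adjusted p = 0.0271), Mki67 by 1.61 ± 0.39 (adjusted p = 0.0309) and the kinetochore motor Cenpe by 1.57 ± 0.33 (adjusted p = 0.0201). The proliferation marker Mki67 was at 76.9, 398.5, 1159.4, 906.9 and 228.1, against 83 to 166.1 in controls (median 119.5), so that replicate 1 was below every control. Hjurp, the chaperone of the centromeric histone, was at 15.6, 37.5, 120.7, 104 and 34.1, against 6.6 to 14.4 in controls (median 12.1), a difference of 1.32 ± 0.21 (adjusted p = 0.0081). Hjurp and the spindle gene Dlgap5 were the only 2 of the 47 whose 5 heated hearts all exceeded all 6 controls, where 0.318% of all IDs did. The other 27 mitosis members were above all controls in 3 or 4 of 5 heated hearts. Cdca8 was the mitosis member that did not pass (0.72 ± 0.21, adjusted p = 0.0654).

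Further members of the spindle checkpoint and of the exit from mitosis rose in heart at 48 h. The checkpoint genes Bub1b, Ttk and Bub1 rose by 1.29, 1.15 and 1.09, and the Aurora kinase genes Aurkb and Aurka by 1.40 and 0.93. Ccnb1, the main cyclin partner of Cdk1, rose by 1.51, and Ube2c, which marks the mitotic cyclins for destruction, by 1.42. Ect2, which starts the cleavage furrow, rose by 1.504, and the motor genes Kif23, Kif11 and Kif2c by 1.47, 1.46 and 1.085. The smallest rise among the 32 was that of Melk at 0.86, with 3 of 5 heated hearts above all controls. Calls depended on single arrays. Of 11 fits that left out 1 array of 48 h, Mki67, Nusap1 and Ube2c kept the call in 4. Aurka, Aurkb and Melk kept it in 5 and Tpx2 in 6, while Hjurp kept it in 10, the most among the 32. The calls of Bub1 and Kif2c were lost with offset 1, with quantile normalization and without any 1 of the 6 controls. They were also lost with the leading characters of the labels' animal tag as a block. That of Bub1 was lost with the replicate number as a block too.

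Of the S phase members, Mcm3 was at 18.1, 26.3, 192.2, 152 and 23.3, against 13.1 to 25.4 in controls (median 17.0), a difference of 1.12 ± 0.29 (adjusted p = 0.0411). Cdc6, which loads the helicase, rose by 1.03 ± 0.28 (adjusted p = 0.0474) and Ccne1 by 1.01 ± 0.21 (adjusted p = 0.0201). For Mcm3 the heated hearts 1 and 6 lay within the range of the controls. The calls of Mcm3 and Cdc6 were lost with offset 1, with quantile normalization and without any 1 of the 6 controls. They were also lost with the leading characters of the animal tag as a block, and each was kept in 7 of 21 settings. Mcm6 (1.105, adjusted p = 0.0674) and Mcm5 (1.1, adjusted p = 0.0743) were of like size without passing, and Ccnd1, at 0.26, was the smallest difference of the 47 (adjusted p = 0.532).

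**Figure D3:**
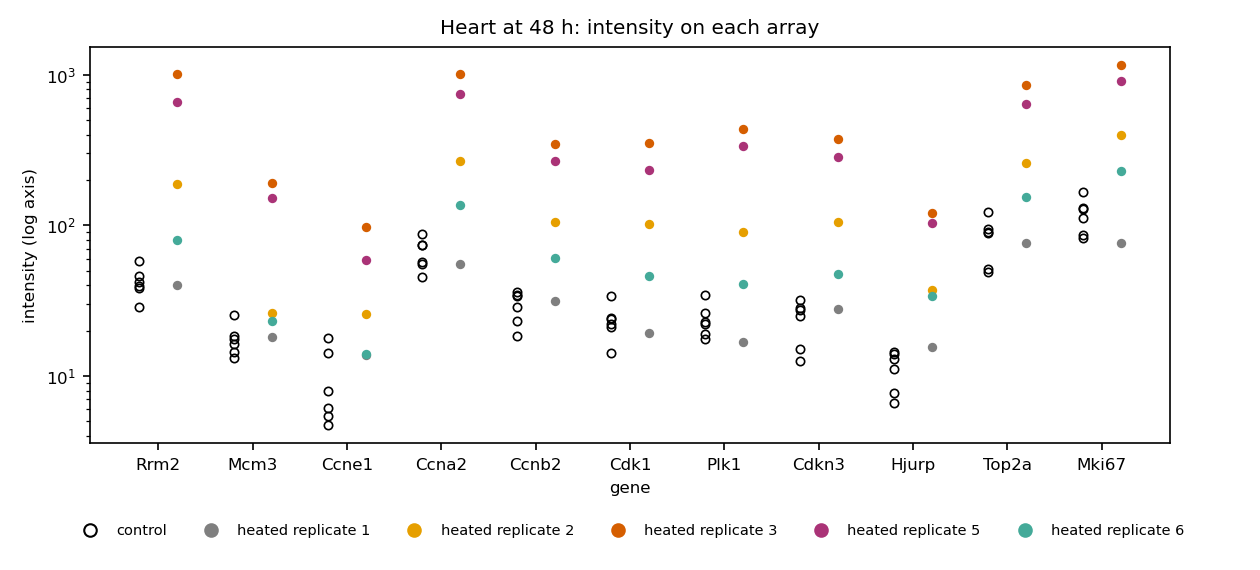
Intensity (log axis) of members of both classes in heart at 48 h, with open points for the 6 controls and a colour for each of the 5 heated replicates. Replicates 3 and 5 are highest for each gene, for example 1010.2 and 656.9 for Rrm2, and replicate 1 (40.2) lies among the controls at 28.6 to 57.6.

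Genes of the pathway outside the set were counted in heart as well, beside 1.25% of all IDs that rose. Of 36 further mitosis genes 26 rose (median 1.02), led by the spindle midzone gene Prc1 (1.72) and the securin gene Pttg1 (1.67). Of 29 further replication genes 8 rose (median 0.59), with the methylation cofactor Uhrf1 at 1.35 and the ubiquitin ligase adaptor Dtl at 1.35. Of 21 G1 regulators 3 rose (median 0.10, 9 of 21 differences negative): Rbl1 by 0.94, E2f1 by 0.85 and E2f8 by 0.83.

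Markers of other cells moved with these genes in the same hearts. The mean over the macrophage and monocyte markers was 7.50, 8.10, 9.51, 9.39 and 7.58 in heated replicates 1, 2, 3, 5 and 6, against 7.21 to 7.87 in controls, and 3 of its 6 genes rose (Itgam by 1.47, Cd68 by 1.46 and Cd14 by 1.35). The fibroblast mean was 9.76, 10.32, 11.58, 10.99 and 9.97, against 9.41 to 10.35 in controls, and 1 of its 6 genes rose (Col3a1 by 1.12). The neutrophil mean was 5.95 and 5.75 in replicates 3 and 5, against 4.90 to 5.24 in controls, and no gene of the neutrophil, lymphocyte, erythroid, endothelial or cardiac muscle lists passed. The cardiac muscle mean was 11.13 in replicate 3 and 11.81 in replicate 5, against 11.77 to 12.23 in controls, and 4 of its 6 genes were lower at an unadjusted p under 0.05 (Myh6 at -0.91, adjusted p = 0.0936). The endothelial mean was 9.27 and 9.22 in replicates 3 and 5, below every control (9.36 to 9.87). The part of all these markers in the rise of the cell cycle genes was not tested, and without replicates 3 and 5 together no member passed. The count rested on few hearts: without heated replicate 3 it was 1 (Hjurp), without heated replicate 5 it was 0, without control replicate 3 it was 7 and without control replicate 4 it was 17, and it was 0 when only these 2 groups were fitted.

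At 48 h 1 member passed in kidney and 0 in liver and lung. In kidney Bub1, a kinase of the spindle checkpoint, was at 7.26 to 20.9 in controls (median 12.7) and at 20.5, 36.3, 49.2, 51.5, 28.1 and 29.7 in heated rats, so that 5 of 6 were above all controls (0.80 ± 0.13, fold 1.75, adjusted p = 0.0117 in limma). That is 1 of 47 members, beside 0.0205% of all IDs that rose in kidney and 0% that fell. The call was lost without control replicate 2 or 3 or heated replicate 4 (adjusted p of 0.0519 to 0.0576), and 12 and 15 members passed without heated replicates 1 and 6. No member passed in liver (0.0103% of all IDs rose and 0.0103% fell) or lung (0% rose and 0.00342% fell; limma), where 20 and 17 members had an unadjusted p under 0.05, as did 30 in kidney.

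The mitosis members had the larger median in each of these organs at 48 h, a difference that was not tested. It was 0.77 for mitosis and 0.27 for S phase in kidney (45 of 47 differences positive), 0.55 and 0.45 in liver (47 of 47 positive) and 0.50 and 0.29 in lung (46 of 47 positive). Neither these medians nor these signs are set against those of all IDs. In kidney Rrm2 was at 40.8, 112.6, 101.4, 308, 94.5 and 25.4 in heated rats, against 15.7 to 39.6 in controls (median 29.2), a difference of 1.24 ± 0.30 (adjusted p = 0.211). Ccna2 (1.09), Tpx2 (1.06) and Ccnb2 (1.06) in kidney were lower in difference than Rrm2, and none of the 3 passed (for Ccnb2 adjusted p = 0.115). In liver Mki67 was at 278.9, 109.3, 91.9, 65 and 258.4, against 10.5 to 141.2 in controls (median 31.7), a difference of 1.41 ± 0.46 (adjusted p = 0.309). In lung Mki67 was at 74.2, 127.3, 397, 311.6 and 77.1, against 60.8 to 174.1 in controls (median 96.2), a difference of 0.67 ± 0.29 (adjusted p = 0.745). In each organ the high values came from some rats of a group in each organ, and the controls of liver and lung overlapped with the rest. Pola1, a polymerase subunit, had liver groups that did not overlap (controls 31.3 to 57.1, heated 59.3 to 82.7), as 1.03% of all IDs did upwards, without passing (0.45 ± 0.16, adjusted p = 0.376). Macrophage and fibroblast markers had 0 calls in kidney, liver and lung at 48 h (limma), and none of the further replication, further mitosis or G1 genes passed there, with medians of the further mitosis genes at 0.40, 0.46 and 0.28 in kidney, liver and lung.

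**Figure D4:**
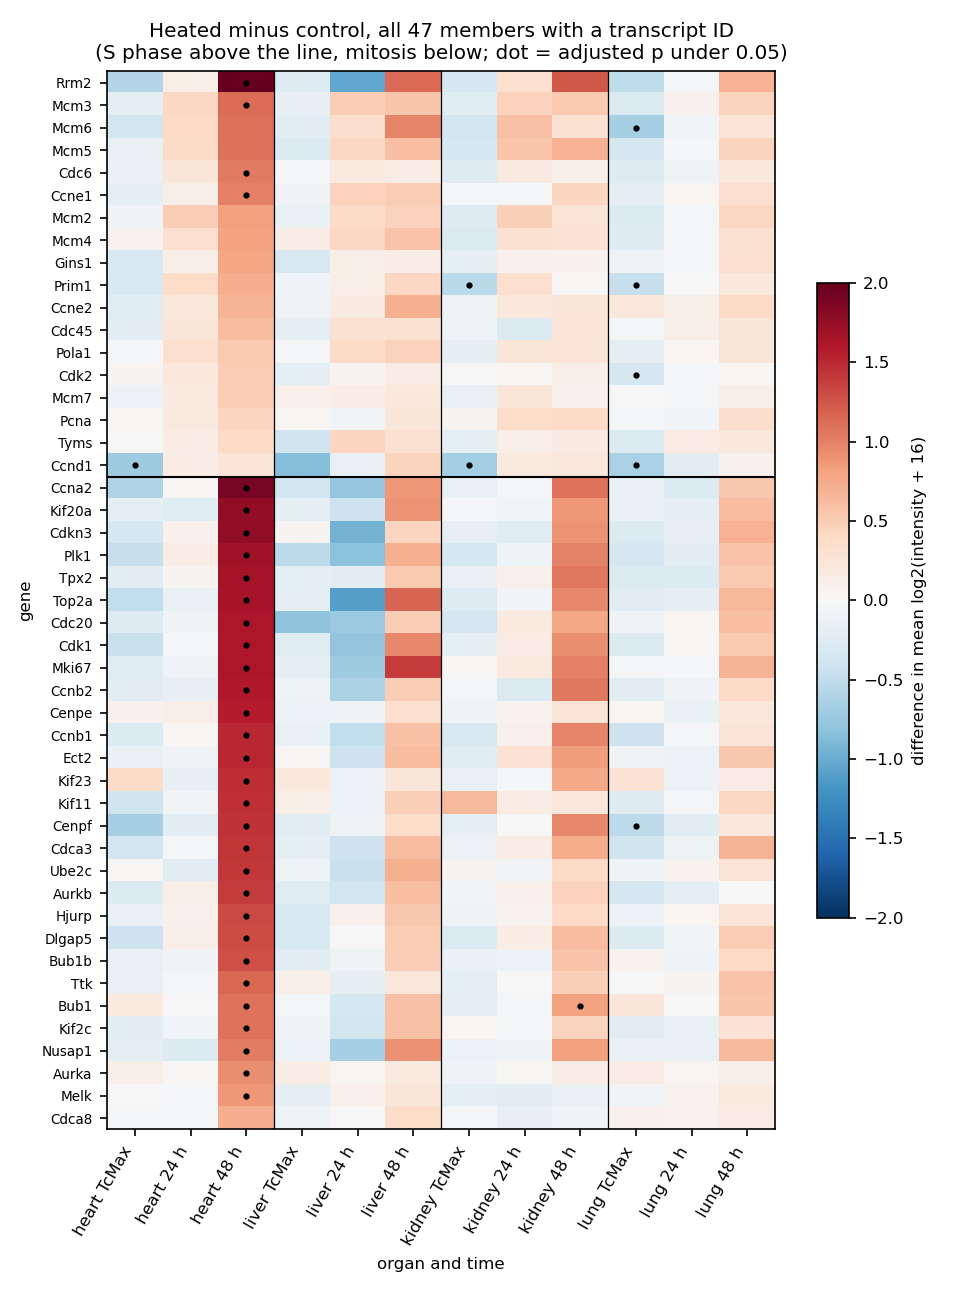
Difference between heated and control means (log2(intensity + 16), colour scale) of the 47 members with a transcript ID in the 4 organs and 3 times, S phase members above the line and mitosis members below, with a dot where the adjusted p is under 0.05. The dots stand in the heart column at 48 h (32 members) and, for falls, in the columns of TcMax (1 in heart, 2 in kidney and 5 in lung), with Bub1 in kidney at 48 h.

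The labels carry an animal tag, so organs of 1 rat can be set beside each other. The tags give 37 rats, more than the study's methods do. Among controls of 48 h, 1 tag covers only heart 3 and kidney 3, and another only liver 1 and lung 4. They were kept as separate rats, and whether they are the same rat was not tested. At 48 h the rat of heart replicate 3 had the largest mitosis excess over the control mean in heart (2.86) and in lung (1.27), with 0.72 in kidney and 0.04 in liver. The rat of heart replicate 5 was high in all 4 organs, with 2.47 in heart, 1.2 in liver, 1.05 in lung and 0.71 in kidney. The rat of heart replicate 2 was high in heart (1.20), liver (1.31) and kidney (0.82) and at 0.02 in lung. The rats of heart replicates 1 and 6 were near the controls in kidney (-0.03 and -0.03) and in lung (-0.09 and -0.14). In heart they were at -0.06 and 0.57, where controls reached 0.19, and in liver at 0.34 and 0.07, where controls reached 0.67. The rat whose heart array was left out had the highest kidney value (1.80).

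The S phase excess was smaller than the mitosis excess in each of those high organs. It was 1.98 in heart and 0.71 in lung for the rat of heart replicate 3, and 1.60 in heart, 0.89 in liver, 0.82 in lung and 0.29 in kidney for the rat of heart replicate 5. For the rat of heart replicate 2 it was 0.42 in heart, 0.86 in liver and 0.31 in kidney. The left-out heart's rat had 0.94 in kidney. The organs of a rat are not replicates of the treatment, and no test was run on these values.

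**Figure D5:**
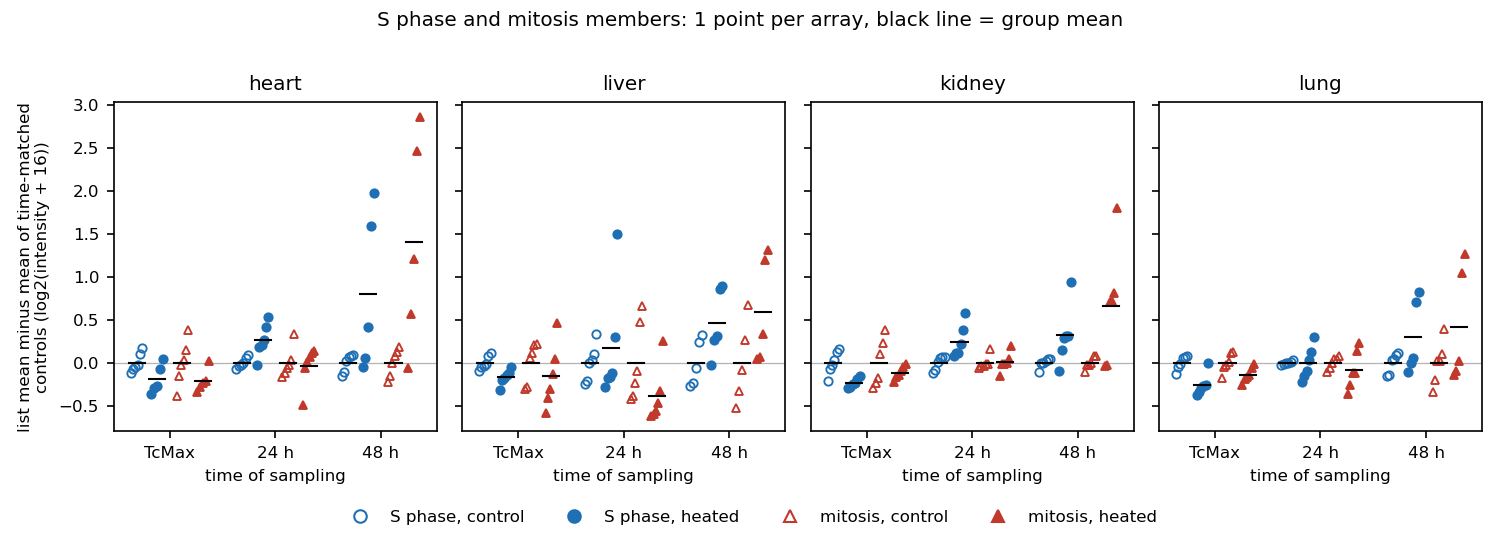
Mean over the S phase members (blue circles) and over the mitosis members (red triangles) minus the mean of the time-matched controls (log2(intensity + 16)), 1 point per array, open for controls and filled for heated rats, with a black line at each group's mean. Heated hearts at 48 h spread from -0.06 to 2.86 for mitosis members. Heated rats at TcMax lie near or below their controls, with the exception of liver replicate 4 at 0.47 for mitosis members (liver controls up to 0.21).

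The response at 48 h differed from that at TcMax in heart, kidney and lung. In heart 23 members (3 of S phase and 20 of mitosis) had a higher response at 48 h than at TcMax, beside 2.05% of all IDs, led by Rrm2 (2.64), Ccna2 (2.49), Top2a (2.15) and Plk1 (2.14). The count was 13 without heated replicate 5 of 48 h and 40 and 38 without replicates 1 and 6. In kidney 9 members did (1.69% of all IDs), led by Rrm2 (1.58), Plk1 (1.34) and Ccnb1 (1.31), and in lung 7 did (3.66% of all IDs), led by Rrm2 (1.20) and Cdca3 (1.08), a gene for a protein of mitotic entry. Leaving out 1 array changed the kidney count to between 4 and 23 and the lung count to between 4 and 13. Between 24 h and TcMax the response was higher for Prim1 (0.89) and Ccnd1 (0.88) in kidney (2.05% of all IDs) and for Tyms (0.83) in liver (6.32% of all IDs). In liver no member responded more at 48 h than at TcMax (5.62% of all IDs), and none did at 48 h compared with 24 h in any organ (0% of all IDs in heart, kidney and lung, 0.00685% in liver).

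Between organs at 48 h few members differed, among the 47, 46 and 45 with the same transcript ID in heart and in liver, kidney and lung. The heart's response exceeded that of liver for Cenpe (1.24) and the motor gene Kif23 (1.23), beside 0.969% of all IDs. It exceeded that of kidney for Cenpe (1.31), the kinase gene Melk (0.99) and Hjurp (0.92), beside 0.691% of all IDs, and that of lung for Cenpe (1.34), Kif23 (1.31), Cenpf (1.23) and Hjurp (1.06), beside 0.524%. Each of these counts was 0 without heated heart replicate 3 or without replicate 5, and rose to 20, 17 and 25 without replicate 1. Kidney Melk was at 51.1 in heated replicate 4 of 48 h (39.8 to 91.6 in controls). That array had the highest mitosis excess in kidney, 1.80. In lung controls of 48 h Cenpf was highest in replicates 2 and 4 (110.2 and 94.3), where Aurkb was at 1684.7 and 1678.6. Whether these IDs follow cell division in kidney and lung was not tested, which also holds for the fall of Cenpf in lung at TcMax. At TcMax no member responded more in heart than in liver (3.89% of all IDs), kidney (0.9%) or lung (1.36%), and none did at 24 h (0.113%, 0.0205% and 0.024%).

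The controls of different times were compared as well. In kidney 7 of 47 members were lower in controls of 48 h than of TcMax, near the 14.1% of all IDs that were, among them the replication genes Cdc45, Mcm4, Gins1, Ccne2 and Ccnd1, Kif23 at -0.57 and Bub1 at -0.53, and Cdc45 was also lower at 48 h than at 24 h (-0.43; 9.13% of all IDs). The controls of heart, liver and lung had no member lower at 48 h than at TcMax (5.26% of all IDs in heart and 0% in liver and lung). Bub1, the gene that passed in heated kidneys at 48 h, is thus compared there with controls below those of TcMax.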

How the data were processed

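Total RNA of heart, liver, kidney and lung was measured on Rat Gene 1.1 ST arrays. The deposited intensity values were computed by the authors in Affymetrix Expression Console 1.1 (iterPLIER, rn4 library files), with a separate normalization per organ. The deposited values are linear and do not hold the offset of 16 that the authors add before the logarithm, so log2(intensity + 16) was taken here. No detection calls were used, and no array repeated another (correlations between replicates 0.904 to 0.992). All 140 columns were used except that heated heart replicate 4 of 48 h was left out of the fits.

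Group means were fitted per organ over its 6 groups with lmFit and eBayes (limma 3.58.1, R 4.3.3), heated was set against time-matched control, and p-values were adjusted over all 29214 IDs, where the study's methods filter on the SD and ask for 2-fold. Contrasts between organs came from 1 fit of all arrays with the rat, by its tag, as a random block (correlation 0.0246, estimated on 5843 IDs). 962 IDs with several symbols were not used for names. The members and the lists of further genes and cell markers were chosen with earlier results of these data known. The up to 12 members that passed with the largest differences in a comparison were named in full, and up to 4 of each further list. Members named beyond these, without passing or (heart at 48 h) with smaller rises, were chosen after their values were seen. Promoters came from RefSeq tables (GRCr8), the first start site for the 2 genes with several.

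Scripts were tested on simulated data in which the changed genes were known. Alternatives were a filter on SD or on dim IDs, offset 1, quantile normalization, a 2-fold minimum and unmoderated variances. Others were a fit of only the 2 groups, the mean over a gene's IDs, keeping replicate 4, and leaving out each array. The replicate number and the leading characters of the animal tag were each used as a block. A rat gives 1 array per organ, so the rat itself was not a block in these fits. Replicate numbers did not pair rats: of 68 same-numbered pairs 23 correlated over 0.1 (r from -0.472 to 0.535), and in 0 of 12 comparisons did every pair. Separate rats are the replicates, and the number of arrays limits the precision.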

Additional observations from a re-analysis of the deposited data

Results flagged for a closer look

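Of 48 means over a class of genes in a group of arrays, 6 held an array whose gap to the nearest other, as a share of the group's range, was above Dixon's 95% critical value, and chance gives about 1 in 20. At 24 h heated liver replicate 5 was at 7.72 for the S phase members (the next at 6.53) and at 5.70 for the mitosis members (the next at 5.12). Heated heart replicate 1 at 24 h was low for the mitosis members at 4.96 (the next at 5.39). Control kidney replicate 4 at 24 h was high for them at 5.24 (the next at 5.07). Control kidney replicate 3 at 48 h was low for the S phase members at 5.98 (the next at 6.08), and heated lung replicate 6 at TcMax was high for them at 6.74 (the next at 6.48). No cause of these gaps was tested.

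The response was higher at 48 h than at TcMax by the interaction term for 23 members in heart (2.05% of all IDs). In kidney it was so for 9 members (1.69% of all IDs) and in lung for 7 (3.66%). At 24 h it was above TcMax for 1 member in liver (Tyms, beside 6.32% of all IDs) and for 2 in kidney (2.05%). The 1 of 47 in liver is not above its share. At 48 h the response was higher in heart than in liver for 2 members (0.969% of all IDs), than in kidney for 3 (0.691%) and than in lung for 4 (0.524%).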

How the results depend on the processing

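Of 301 counts of members under other settings, 265 stayed within 1.5 times, and of 866 alternatives of 41 single members 615 kept the call and 0 reversed it. A main count of 0 was taken as unchanged where the other setting also gave 0. Most counts of rises and falls were 0, so much of the 265 is 0 against 0 and says little about the larger counts. The cause of a change was not tested beyond what the setting itself removes. The rise in heart at 48 h (32 members) became 8 without dim IDs, 21 with offset 1, 16 with unmoderated variances, 0 in a fit of the 2 groups and 0 without heated replicates 3 and 5 (added after seeing the data). Without dim IDs, 9 members responded more at 48 h than at TcMax in heart (23 in the main fit), 4 more at 24 h and 2 more at 48 h than at TcMax in kidney (2 and 9), 0 rose in kidney at 48 h (1) and 1 fell in liver at TcMax (0). Without replicates 3 and 5 the heart count of 48 h above TcMax was 5. With the SD filter 1 fell in liver at TcMax and 14 were higher at 48 h than at TcMax in kidney. Offset 1 gave 1 fall in liver at TcMax, and 0, 1 and 0 members higher in heart than in liver, kidney and lung at 48 h (2, 3 and 4). Quantile normalization gave 0 for liver and 0 for lung there, and 4 for kidney at 48 h above TcMax. The 2-fold minimum left 0 falls at TcMax in heart, kidney and lung (1, 2 and 5), 0 rises in kidney at 48 h, 0 members higher at 24 h than at TcMax in liver and kidney, and 2 higher at 48 h in lung (7). The fit of only 2 groups gave 0 falls in heart, 3 in liver and 4 in kidney at TcMax, 1 rise in kidney at TcMax and 0 at 48 h. Keeping heart replicate 4 gave 0 falls at TcMax in heart.

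With the replicate number as a block 1 member rose in kidney at TcMax (0 without), 31 rose in heart at 48 h and 6 fell in lung at TcMax. The leading characters of the animal tag as a block gave 1 rise in kidney and 1 fall in liver at TcMax. The replicate block moved no other count by over 1.5 times. Without the dim IDs the mitosis median was -0.17 in kidney at 24 h and -0.07 in kidney at 48 h, over 3 genes each, and the other 94 of 96 medians kept their sign.

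Leaving out 1 array at a time gave 0 to 46 rises in heart at 48 h, 0 to 15 in kidney at 48 h, 0 to 1 in kidney at TcMax, 0 to 1 falls in liver and 3 to 6 in lung at TcMax. Responses at 48 h above TcMax ranged from 13 to 40 in heart, 4 to 23 in kidney and 4 to 13 in lung, those at 24 h above TcMax from 2 to 5 in kidney, and those of heart above liver, kidney and lung at 48 h from 0 to 20, 0 to 17 and 0 to 25. In kidney the 48 h count above TcMax was 4 and 5 without TcMax controls 5 and 6, and 14, 16 and 23 without TcMax control 4 or heated replicates 1 and 6. In lung it was 4 without heated replicate 3 or 4 and 13 without replicate 5. Many members lie near the bottom of the intensity scale, where the offset compresses differences.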
